A study of Mus musculus with 16 samples.

Results

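The heat shock genes described here are Hspa1a, Hspa1b, Hspa8, Hsph1, Dnajb1, Hsp90aa1, Hspb1, Hspd1, Hspe1 and Hsf1, taken by name as 10 of the 55335 genes of the count table. They were chosen by family and by their CPM in wt and ko libraries, so their genotype values are given as a description with no test. The 48 h and 72 h libraries of each genotype were tested, except for Hspb1, whose values are described below. These tests use the same libraries as the choice of the genes. The p-values of the members, above all those in ko, are therefore not independent of that choice. Poly-A RNA was sequenced from CD8 T cells (cytotoxic lymphocytes) enriched from mouse spleen. The donors were C57BL/6 mice, either wt or with both alleles of the transcription factor gene Batf3 deleted (Batf3-/-, here ko). All 4 groups (wt 48 h, ko 48 h, wt 72 h and ko 72 h) held 4 libraries and received 50 ng/ml of IL-15, a cytokine, and antibodies that activate T cells until RNA was taken: anti-CD3e (clone 2C11, bound to the plate) and anti-CD28 (clone 37.51), each at 1 µg/ml. The 4 libraries of each group are technical replicates per the series text. Every p-value therefore measures their spread only, not that of separate animals, whose age and number were not given in the sources used here. No unstimulated cells or cells given a heat shock are among the 16 libraries.

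Heat shock proteins are chaperones, which hold unfolded proteins and help them fold. HSP70 proteins (Hspa1a, Hspa1b and Hspa8) bind short stretches of unfolded chain and release them in a cycle driven by ATP, J-domain proteins such as Dnajb1 start that cycle and Hsph1 (HSP110) ends it by exchanging the nucleotide. Hsp90aa1 acts later on kinases and receptors, Hspd1 and its lid Hspe1 form the folding chamber of the mitochondrial matrix, and Hspb1 is a small heat shock protein that holds unfolded chains without ATP. Hsf1 is the transcription factor that turns on heat shock genes through heat shock elements in their promoters. Hspa1a and Hspa1b are the forms that stressed cells induce, while Hspa8 is made in unstressed cells.

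Hspa1a and Hspa1b are neighbouring genes of 1 exon each on the minus strand of chromosome 17, from 34969190 to 34972156 and from 34956436 to 34959238 (GRCm38, GENCODE M21). Their start sites lie 12918 bases apart. Their coding sequences without the stop codon are 1923 and 1926 bases long, and 1915 of 1926 aligned columns are identical (99.4%), with 8 substitutions and 3 gap bases. The longest identical run is 638 bases. How the authors counted reads that match both copies is not given in the sources used here. The level of each copy is therefore uncertain, and each library's share is given below.

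The sequences before the start sites are shown because they are where the Hsf1 protein is known to act, for the members highest at 72 h over 48 h (Hspa1a, Hspa1b and Hspb1), for the mitochondrial chaperonin gene with the longest match (Hspe1) and for Hsph1, which fell and also holds a match. RefSeq's table for GRCm38.p6 held a window for 7 of the 10 members; Hspa8, Hsp90aa1 and Hsf1 had none. A heat shock element is built from repeats of GAA and TTC. The letters searched were GAANNTTC or TTCNNGAA (2 units) and GAANNTTCNNGAA or TTCNNGAANNTTC (3 units), which read the same motifs on both strands, and each 3-unit match also holds 2-unit ones. Capitals mark the matches, which are matches of letters only. Binding of the Hsf1 protein to them was not measured. Hspa1a (chr17:34972157-34972406, minus strand), Hspa1b (chr17:34959239-34959488, minus strand) and Hspb1 (chr5:135887669-135887918, plus strand) are printed with the 250 bases that end at the base before the start site. For Hspe1 (chr1:55088053-55088082, plus strand) and Hsph1 (chr5:149636351-149636380, minus strand) 30 bases are printed.
Hspa1a: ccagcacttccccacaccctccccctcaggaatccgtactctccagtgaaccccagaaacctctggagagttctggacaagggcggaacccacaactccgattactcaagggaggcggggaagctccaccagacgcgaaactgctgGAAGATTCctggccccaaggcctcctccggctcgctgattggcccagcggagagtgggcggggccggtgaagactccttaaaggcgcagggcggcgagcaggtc
Hspa1b: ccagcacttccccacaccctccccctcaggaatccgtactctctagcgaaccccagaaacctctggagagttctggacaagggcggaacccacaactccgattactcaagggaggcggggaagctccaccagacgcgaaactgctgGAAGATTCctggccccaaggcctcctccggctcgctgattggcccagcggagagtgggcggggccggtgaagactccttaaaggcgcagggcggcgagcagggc
Hspb1: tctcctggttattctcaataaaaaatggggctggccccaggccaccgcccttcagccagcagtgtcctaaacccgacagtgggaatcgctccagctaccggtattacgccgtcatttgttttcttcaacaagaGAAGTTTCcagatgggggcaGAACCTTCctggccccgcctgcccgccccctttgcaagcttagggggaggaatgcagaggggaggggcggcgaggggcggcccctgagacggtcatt
Hspe1: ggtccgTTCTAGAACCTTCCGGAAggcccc
Hsph1: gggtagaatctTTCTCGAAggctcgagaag

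The Hspa1a and Hspa1b windows were identical at 247 of 250 positions. The substitutions were C44T, T47C and T249G, with the Hspa1a base first and positions counted from 1 at the 5′ end of the window. Both copies hold the match GAAGATTC, 104 to 97 bases before the start site. Hspb1 holds GAAGTTTC from 117 to 110 and GAACCTTC from 97 to 90 bases before its start. In Hspe1 the 3-unit matches TTCTAGAACCTTC and GAACCTTCCGGAA overlap, from 89 to 72 bases before the start, in a stretch that also lies inside the annotated Hspd1 gene. The Hsph1 match TTCTCGAA lies 33 to 26 bases before the RefSeq start site. In GENCODE M21, whose Hsph1 gene starts at 149636376, the match lies inside the gene. Of the 7 members with a window, 5 held a 2-unit match and Hspe1 held a 3-unit match; Dnajb1 and Hspd1 held neither. Among 32851 windows of the same length 4218 (12.8%) held a 2-unit match and 153 (0.466%) a 3-unit match.

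Library totals ran from 29375818 to 39241169 counts. Batf3 had 75.8 to 87.7 CPM (counts scaled by the library's total) in wt at 48 h and 28.7 to 34.2 at 72 h. In the ko libraries it reached at most 0.189 CPM at 48 h and 0.366 at 72 h. The 6 CD8 T cell markers were all read, and Cd4 stayed at or below 0.896 CPM. The CD8 markers summed to 1319 to 1355 CPM in wt and 1367 to 1451 in ko at 48 h. At 72 h they summed to 1971 to 2013 CPM in wt and 2156 to 2271 in ko, so the groups did not overlap. Earlier results on these data set ko 48 h replicate 4 and wt 72 h replicate 4 apart from their groups. Without both, the counts of members below that rose and fell did not change. In bulk RNA, fewer cells of a type and less RNA per cell cannot be told apart.

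The inducible HSP70 genes rose steeply from 48 h to 72 h in both genotypes. At 48 h Hspa1a had 2.53, 2.43, 1.65 and 2.09 CPM in replicates 1 to 4 of wt and 1.55, 1.501, 1.80 and 1.99 in ko. At 72 h it had 110.5, 104, 27.5 and 24.7 CPM in wt and 175, 186, 229 and 192 in ko. All 72 h libraries of a genotype lay above all its 48 h libraries, and within wt at 72 h replicates 1 and 2 were far above replicates 3 and 4. The rise was 30.2-fold in wt (log2 fold change 4.92 ± 0.54, SE; adjusted p = 2.94e-06, edgeR's quasi-likelihood test with Benjamini-Hochberg adjustment over 15197 genes). In ko it was 119.6-fold (6.90 ± 0.57, SE; adjusted p = 1.38e-07, edgeR). Hspa1a had the third largest rise of all genes tested in ko (rank 3 of 15197) and rank 19 in wt.

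Hspa1b moved with it, at 4.84, 4.06, 2.99 and 3.59 CPM in wt and 2.96, 2.37, 2.88 and 3.85 CPM in ko at 48 h. At 72 h the wt libraries had 139.6, 132, 37.9 and 32.9 CPM of Hspa1b and the ko libraries 225, 233, 287 and 235. The order of the wt 72 h libraries was that of Hspa1a. It rose 21.8-fold in wt (4.45 ± 0.49, SE; adjusted p = 3.43e-06, edgeR) and 85.6-fold in ko (6.42 ± 0.53, SE; adjusted p = 1.35e-07, edgeR). Among the 9284 genes whose average log2 CPM reached 3, Hspa1a and Hspa1b ranked 1 and 2 by rise in ko and 4 and 6 in wt. Leaving out any 1 library kept every one of these calls.

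The share of the pair's counts assigned to Hspa1a was 34.1% to 38.8% in the 48 h libraries and 42.1% to 44.9% in the 72 h libraries, with no overlap. It stood on 134 to 271 counts a library for both copies at 48 h and on 1801 to 15504 at 72 h. Summed, the pair had 3.87 to 7.38 CPM at 48 h, 57.6 to 250.1 CPM in wt at 72 h and 400.2 to 516 CPM in ko at 72 h.

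Hspb1, the small heat shock protein gene, was close to the detection limit at 48 h, with 7, 2, 2 and 5 counts in wt and 6, 2, 0 and 5 in ko. In wt at 72 h it had 68, 75, 12 and 6 counts (2.22, 2.10, 0.408 and 0.192 CPM), and in ko at 72 h 154, 198, 199 and 159 counts (4.48, 5.71, 6.63 and 4.79 CPM). A count of 0 allows up to 3 counts, or 0.0765 to 0.102 CPM over the libraries, for counting error only. The wt 72 h libraries again fell apart into replicates 1 and 2 above and 3 and 4 below, and even the lowest, at 0.192 CPM, was only just above the highest wt 48 h library at 0.191. Hspb1 passed the filter on low counts only through its high ko 72 h libraries, and it did not pass when the wt groups were fitted alone. Its change with time is therefore given by these values in both genotypes, with no test. In ko the fitted log2 fold change was 5.86 ± 0.65 (SE), given as a description. The ko 72 h counts that let the gene pass the filter are also those compared.

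**Figure D1:**
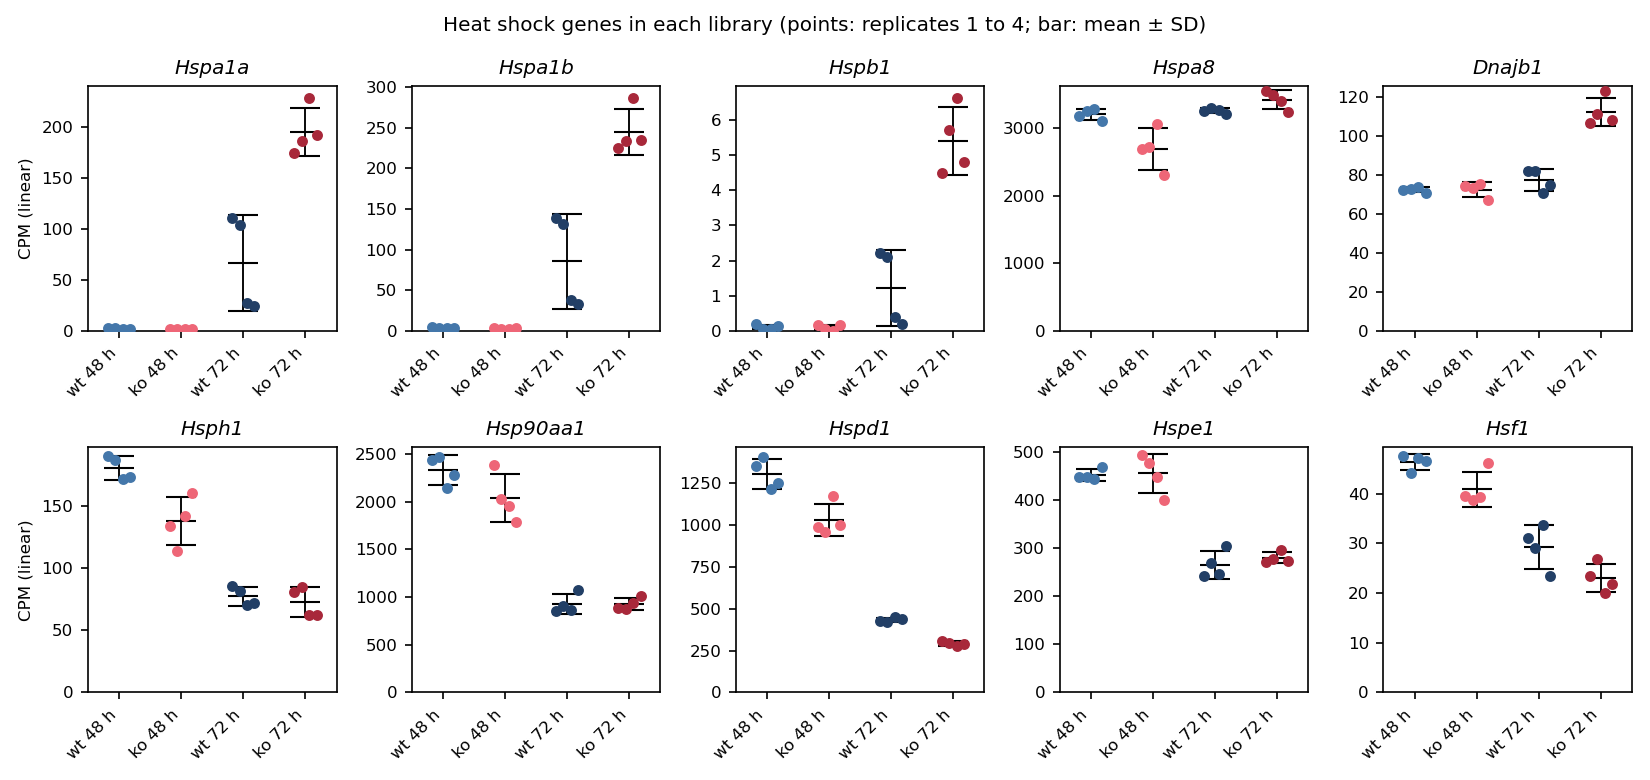
CPM of each heat shock gene (linear axis from 0) in the 4 libraries of each group, with points in replicate order and bars for the mean ± SD (n = 4). Hspa1a, Hspa1b and Hspb1 are near 0 at 48 h and highest in ko at 72 h, and the wt 72 h libraries of these genes spread widely.

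Hspa8, the constitutive HSP70 and the most abundant member per exon length in every group, hardly moved next to its inducible relatives. It had 3181, 3248, 3289 and 3109 CPM in wt at 48 h and 3261, 3301, 3273 and 3209.5 CPM at 72 h. In ko it had 2689.7, 2727, 3065 and 2303 CPM at 48 h and 3556, 3496, 3396 and 3237 CPM at 72 h. The wt groups overlapped (log2 fold change 0.00 ± 0.07, SE; adjusted p = 0.984, edgeR), and the ko groups did not, with a rise of 1.33-fold (0.41 ± 0.07, SE; adjusted p = 2.07e-05, edgeR).

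Dnajb1, whose J-domain protein works with HSP70 in stressed cells, had 72.5, 73.0, 73.9 and 71.1 CPM in wt at 48 h and 82.1, 82.3, 70.8 and 74.7 CPM at 72 h. The ko libraries had 74.4, 73.2, 75.6 and 67.1 CPM at 48 h and 106.7, 112, 123 and 108 CPM at 72 h. Only the ko 72 h libraries stood clear of the others. The change did not pass in wt (0.07 ± 0.07, SE, on the log2 scale; adjusted p = 0.396, edgeR), and in ko Dnajb1 rose 1.62-fold (0.70 ± 0.07, SE; adjusted p = 2.44e-09, edgeR). Removing each library's trend with exon length gave 0.23 in wt (adjusted p = 0.00381, edgeR), past the threshold. Whether the change with time of any member differs between the genotypes was not tested, since the rule compared the genotypes.

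Hsph1, the HSP110 exchange factor, and Hsp90aa1, an HSP90, fell in both genotypes. Hsph1 had 190.2, 186, 172 and 173 CPM in wt at 48 h and 85.2, 81.8, 70.1 and 71.5 CPM at 72 h, and in ko 134, 114, 142 and 160.4 CPM at 48 h and 80.7, 84.7, 62.1 and 62.2 CPM at 72 h. It fell in wt (-1.25 ± 0.10, SE, on the log2 scale; adjusted p = 1.67e-10, edgeR) and in ko (-0.86 ± 0.10, SE; adjusted p = 6.1e-08, edgeR). Hsp90aa1 had 2435, 2471, 2139.9 and 2278 CPM in wt at 48 h and 852, 910.4, 866 and 1072 CPM at 72 h. In ko it had 2379.8, 2028, 1953 and 1787 CPM at 48 h and 883, 869.9, 941 and 1008 CPM at 72 h. It fell in wt (-1.36 ± 0.09, SE; adjusted p = 1.27e-11, edgeR) and in ko (-1.08 ± 0.09, SE; adjusted p = 4.59e-10, edgeR), and no 72 h library reached a 48 h library of its genotype for either gene.

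The mitochondrial chaperonin fell too, and its chamber gene fell furthest of all members. Hspd1 had 1353, 1408, 1217 and 1251 CPM in wt at 48 h and 425, 421, 452 and 437 CPM at 72 h. In ko it had 988, 958, 1173 and 999.98 CPM at 48 h and 309.9, 294, 276 and 292 CPM at 72 h. That was a fall in wt (-1.62 ± 0.07, SE, on the log2 scale; adjusted p = 5.81e-16, edgeR) and in ko (-1.75 ± 0.07, SE; adjusted p = 7.7e-17, edgeR). Hspe1, the lid, had 447, 447, 443 and 469 CPM in wt at 48 h and 241, 268, 245 and 304 CPM at 72 h, and in ko 493, 477, 448 and 399.96 CPM at 48 h and 271, 278, 296 and 273 CPM at 72 h. It fell less, by 0.79 ± 0.08 (SE) on the log2 scale in wt (adjusted p = 6.59e-09, edgeR) and by 0.64 ± 0.08 (SE) in ko (adjusted p = 1.74e-07, edgeR). Hspd1 and Hspe1 lie head to head on chromosome 1 with start sites 95 bases apart and overlapping 5′ ends, and the strand setting of the counting is not given in the sources used here; reads from the overlap could be assigned to either gene. Hspa8, Hspd1 and Hspe1 also have processed pseudogenes in the mouse genome that could share reads.

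Hsf1, the regulator, had 47.7, 44.2, 47.2 and 46.6 CPM in wt at 48 h and 31.2, 29.2, 33.8 and 23.4 CPM at 72 h. In ko it had 39.5, 38.8, 39.3 and 46.2 CPM at 48 h and 23.4, 26.8, 20.05 and 21.9 CPM at 72 h. Its mRNA fell in wt (-0.69 ± 0.09, SE, on the log2 scale; adjusted p = 2.03e-07, edgeR) and in ko (-0.76 ± 0.09, SE; adjusted p = 3.78e-08, edgeR), while Hspa1a and Hspa1b rose. The activity of the Hsf1 protein was not measured.

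In all, beside Hspb1, 2 members rose and 5 fell in wt, and 4 rose and 5 fell in ko. Of all 15197 genes, 33.6% rose and 29.9% fell in wt (63.6% either way), and 34.4% rose and 33.6% fell in ko (68.0% either way). All 10 members passed the filter on low counts, Hspb1 only through ko at 72 h. The 10 genes together held a mean of 7601 ± 247 CPM (SD, n = 4) in wt at 48 h, 6473 ± 513 in ko at 48 h, 5222 ± 106 in wt at 72 h and 5573 ± 95.7 in ko at 72 h. Hspa1a, Hspa1b and Hspb1 supplied 4.69 to 7.57 CPM of it in wt at 48 h and 405 to 523 CPM in ko at 72 h.

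**Figure D2:**
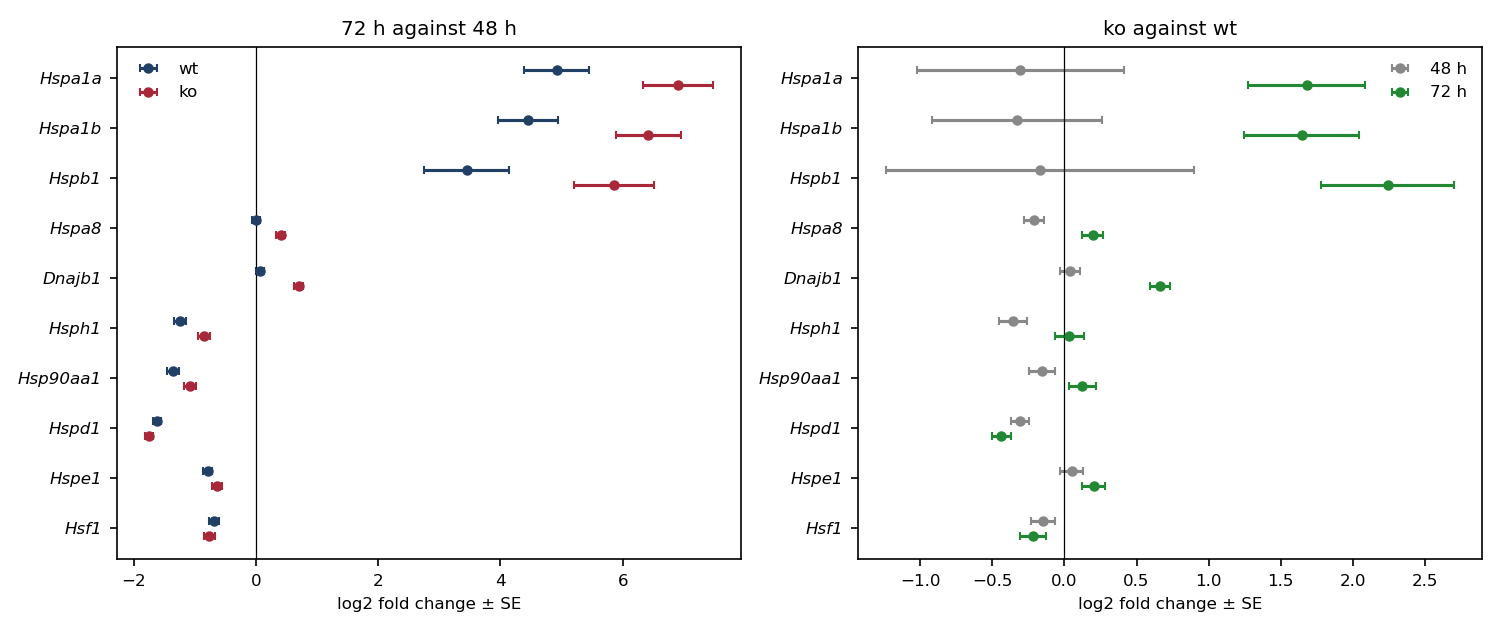
Fitted log2 fold changes ± SE of the 10 heat shock genes, at left 72 h against 48 h in wt and ko, at right ko against wt at each time. Hspa1a, Hspa1b and Hspb1 lie far to the right at left, Hspd1 lies lowest in both genotypes, and at 72 h Hspa1a, Hspa1b, Hspb1 and Dnajb1 lie above 0 at right.

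Between genotypes, the ko libraries at 72 h held more Hspa1a, Hspa1b and Hspb1 mRNA than any wt library. Hspa1a averaged 195 ± 23.5 CPM in ko and 66.6 ± 46.8 in wt at 72 h (SD over 4 libraries), a log2 difference of 1.68 ± 0.40 (SE). Hspa1b differed by 1.64 ± 0.40 and Hspb1 by 2.24 ± 0.46 (log2, SE). The size of these differences rests on which wt 72 h libraries are read. The lowest ko library of Hspa1a, at 175 CPM, stood above the wt libraries at 110.5 and 104 CPM by less than above those at 27.5 and 24.7 CPM. Dnajb1 averaged 112 ± 7.38 CPM in ko and 77.5 ± 5.66 in wt (SD, n = 4 each), a log2 difference of 0.66 ± 0.07 (SE), and its wt libraries lay close together at 70.8 to 82.3 CPM.

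In the opposite direction, Hspd1 was lower in ko at both times, at 1029.8 ± 96.9 against 1307 ± 88.7 CPM at 48 h and 293 ± 14.03 against 433 ± 13.9 CPM at 72 h (SD, n = 4 each). The log2 differences were -0.31 ± 0.07 and -0.44 ± 0.07 (SE), and with library-size scaling the value at 72 h was -0.57. At 48 h Hspa8 and Hsph1 were also lower in every ko library than in every wt library, with log2 differences of -0.21 ± 0.07 and -0.36 ± 0.10 (SE). The remaining genotype values were near 0 or overlapped. At 72 h Hsp90aa1 differed by 0.12 and Hsph1 by 0.03 on the log2 scale, which became 0.00 and -0.09 with library-size scaling, and Hspa8 and Hspe1 each differed by 0.20, which became 0.069 and 0.078.

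The groups of 4 did not overlap for 3 members lower in ko at 48 h and none higher, and for 4 higher and 1 lower at 72 h. Over all 15197 genes the groups did not overlap with ko higher for 5.69% and with ko lower for 8.76% at 48 h, and for 8.34% and 26.8% at 72 h. Nothing is read from these counts, because the rule used this comparison. Library-size scaling shifted the median of all genes between genotypes at 72 h from -0.0154 to -0.142 on the log2 scale, so small genotype differences at 72 h depend on the scaling.

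Of the markers of other blood cells, the summed CPM of the macrophage, monocyte and granulocyte list was higher at 72 h and higher in ko, with no overlap between groups. The 10 macrophage, monocyte and granulocyte markers summed to 1.47 to 2.31 CPM in wt and 4.16 to 5.93 in ko at 48 h, and to 6.65 to 7.90 in wt and 16.4 to 21.7 in ko at 72 h. Of them 8 stayed under 1 CPM in every library and Adgre1, S100a8 and S100a9 were at 0. The sums therefore do not show that the list rose as a whole. The 7 B cell markers summed to 246 to 257, 284 to 318, 223.2 to 293 and 304 to 334 CPM in wt 48 h, ko 48 h, wt 72 h and ko 72 h, with 5 under 1 CPM throughout. This sum too was higher in every ko library than in every wt library of the same time. The 5 natural killer markers (52.3 to 69.2 CPM) and the 5 dendritic markers (3.55 to 5.99 CPM, Siglech at 0) varied less. Each library's trend of expression with exon length, in log2 units per doubling, was 0.007 to 0.043 in wt and -0.071 to 0.033 in ko at 48 h, and -0.001 to 0.083 in wt and -0.073 to -0.026 in ko at 72 h. The part of these markers in the results was not tested, and with the length trends removed the log2 difference at 72 h was 1.66 for Hspa1a and 0.67 for Dnajb1. Mitochondrial genes held 2.92% to 4.58% of counts.

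Per kilobase of exon, the order of the members changed with time. Hspa8 led in every group, with 746 ± 18.4 CPM per kb in wt at 48 h and 796 ± 32.4 in ko at 72 h (SD, n = 4), though at 48 h in ko its range overlapped that of Hsp90aa1. Hsp90aa1 followed with 593 ± 38.8 in wt at 48 h and 235 ± 25.6 at 72 h. At 48 h Hspd1 and Hspe1 came next, and Hspa1b, Hspa1a and Hspb1 were the last. At 72 h Hspa1b had rank 5 in both genotypes, at 30.6 ± 20.7 CPM per kb in wt, where its range overlapped those of Dnajb1 and Hspa1a, and at 87.5 ± 10.1 in ko, where the ranges of neighbours did not overlap. Hspb1 was last in wt at 72 h, at 1.19 ± 1.05 CPM per kb, and above Hsf1 in ko, at 5.24 ± 0.939 against 3.24 ± 0.404.

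**Figure D3:**
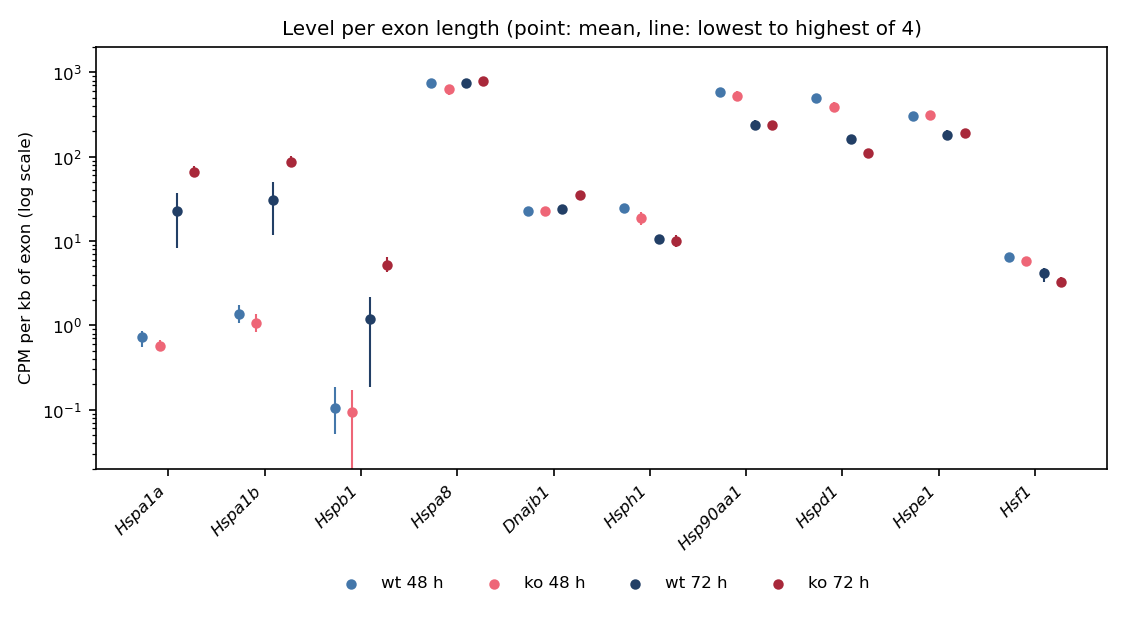
Level of each heat shock gene per kilobase of exon (CPM per kb, log axis) in the 4 groups, with points for the mean of 4 libraries and lines from the lowest to the highest, cut at the lower edge where Hspb1 had a library at 0. The level of Hspa8 stays near the top in all groups, and Hspa1a and Hspa1b pass from under 2 at 48 h to between Dnajb1 and Hspd1 in ko at 72 h.

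Across the 16 libraries the log2 CPM of Hspa1a and Hspa1b followed each other with Pearson r = 0.999, Hspb1 followed Hspa1b with r = 0.956, and Hspd1 ran against Hspa1b with r = -0.965. These values describe 16 libraries of 4 groups that share the difference between the times. By the rule for likeness, the genes nearest to Hspd1 were Psmd7, a proteasome subunit, Ahsa1, an HSP90 co-chaperone, and Prpf31, a splicing factor, each with r = 0.997 over 16 libraries. Nearest to Hsph1 were Il2ra, the alpha chain of the IL-2 receptor (r = 0.989), Rbm27 (0.981) and Igtp, an interferon-induced GTPase (0.979). Hspa8 had no close match, with Vta1 (0.877) and Arf4 (0.869) among the nearest. For Hspa1b, looked up after its values were seen, Hspa1a was followed by Btg1 and Gtf2i, both at r = 0.990.

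The wider chaperone network was read from 75 other genes in 9 lists, of which 65 passed the filter on low counts. In wt 10 rose and 42 fell from 48 h to 72 h, with a median log2 fold change of -0.41 against 0.05 for all genes. In ko 13 rose and 39 fell, with a median of -0.34 against 0.03 for all genes. Of all 15197 genes 33.6% rose and 29.9% fell in wt, and 34.4% rose and 33.6% fell in ko. The counts of each list below stand beside these shares. Of those that fell, 38 did so in both genotypes, 90.5% of the wt list and 97.4% of the ko list, and 9 rose in both (90.0% and 69.2%). None passed in opposite directions. The same overlap over all genes was not computed, and 63.6% of them passed either way in wt and 68.0% in ko. The overlap is therefore not read as a trait of chaperone genes.

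TRiC, the cytosolic chaperonin that folds actin and tubulin, fell in all 8 subunits in wt and in 6 of 8 in ko. Cct3 went from 506 ± 15.5 CPM in wt at 48 h to 220.5 ± 16.2 at 72 h and from 440.5 ± 28.6 to 145 ± 11.1 in ko (SD, n = 4 each), a fall of 1.22 and 1.53 on the log2 scale. Cct6a fell by 1.20 and 1.16, Cct8 by 1.00 and 0.94, and Cct2 by 0.34 and 0.25, although the ko value of Cct2 no longer passed with the length trends removed (adjusted p = 0.0946, edgeR). HSP90 and its co-chaperones fell in 8 of 11 genes in each genotype, Hsp90ab1 (described next) among them. Ppid (a cyclophilin) fell by 1.60 in wt and 1.85 in ko, Ahsa1 (which speeds the ATPase of HSP90) by 1.44 and 1.63, Fkbp4 (an immunophilin) by 1.32 and 1.58 and Stip1 (which links HSP70 to HSP90) by 0.86 in both, all log2.

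Hsp90ab1, the constitutive HSP90, fell far less than Hsp90aa1, by 0.18 ± 0.07 in wt (adjusted p = 0.0382, edgeR) and 0.26 ± 0.07 in ko (adjusted p = 0.00265, edgeR; log2, SE). Its wt call was lost without wt 48 h replicate 1, 2 or 3 or wt 72 h replicate 4, where the adjusted p reached 0.169, and with library-size scaling (adjusted p = 0.0999, edgeR). With the length trends removed neither genotype passed (adjusted p = 0.803 in wt and 0.219 in ko, edgeR).

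Nucleotide exchange factors and adaptors of HSP70 fell in 7 of 8 genes in both genotypes. Stub1, the ubiquitin ligase that tags HSP70 clients, fell by 0.72 in wt and 0.94 in ko, Bag5 by 0.73 and 0.85 and Hspbp1 by 0.64 and 1.11 (log2). Bag3, a co-chaperone that heat and stress induce, was the exception, at 0.15 ± 0.13 in wt (adjusted p = 0.34, edgeR) and 0.37 ± 0.14 in ko (log2, SE; adjusted p = 0.0201, edgeR). Its libraries overlapped in both genotypes, and the ko call was lost without ko 48 h replicate 1 or 2 or ko 72 h replicate 4, with an adjusted p of up to 0.0897 in edgeR.

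HSP70 relatives and J-domain proteins were mixed. Hspa4 (HSP110 group) fell by 0.75 in wt and 0.68 in ko and Hspa14 by 0.90 and 1.31, while Hspa4l rose from 29.4 ± 1.80 to 64.5 ± 9.50 CPM in wt and from 27.8 ± 1.24 to 72.2 ± 12.2 in ko (SD, n = 4 each), or by 1.11 and 1.45 (log2). Of 6 tested HSP70 relatives 1 rose and 3 fell in wt, and 1 rose and 4 fell in ko. Of 10 J-domain genes 2 rose and 6 fell in wt and 4 rose and 6 fell in ko. Dnajb4 rose by 1.01 and 1.57 and Dnajc5, a synaptic vesicle chaperone, by 0.80 and 1.02 (log2), and Dnaja2 fell by 0.66 in wt and Dnajb5 by 0.92 in ko.

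Mitochondrial chaperones and proteases fell in 7 of 10 genes in wt and 6 in ko and rose in 2. Hspa9, the mitochondrial HSP70, went from 1289 ± 19.8 to 659 ± 21.2 CPM in wt and from 1159.7 ± 19.6 to 534 ± 16.9 in ko (SD, n = 4 each), falling by 0.99 and 1.05 (log2). Clpp, a matrix protease subunit, fell by 1.56 and 1.62, and Hscb, which works in iron-sulfur cluster assembly, rose by 0.89 and 1.22. Of 3 tested genes in the list of small heat shock genes, which was made by gene name, 2 passed as higher in each genotype. They were Hspb11, by 1.02 and 1.18, and Cryaa. The average log2 CPM of Cryaa was under 3, below the level set for named genes, and nothing more is read from its calls. In ko the 72 h libraries lay clear above the 48 h libraries for only 1 of the 3. What these proteins do in the cells was not measured. Hsf2 fell by 0.36 in wt (adjusted p = 0.000156, edgeR) and had -0.14 in ko (adjusted p = 0.1, edgeR). Hsf4, another heat shock factor with an average log2 CPM under 3, rose by 0.70 and 0.86. Its ko libraries at 48 h and 72 h overlapped. Of 6 tested other heat-inducible genes 1 rose and 2 fell in wt and 2 rose and 2 fell in ko. Cacybp fell by 1.51 and 1.81 and Zfand2a by 0.42 and 0.74, and Ubb, a ubiquitin gene, rose by 0.36 in ko (log2).

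**Figure D4:**
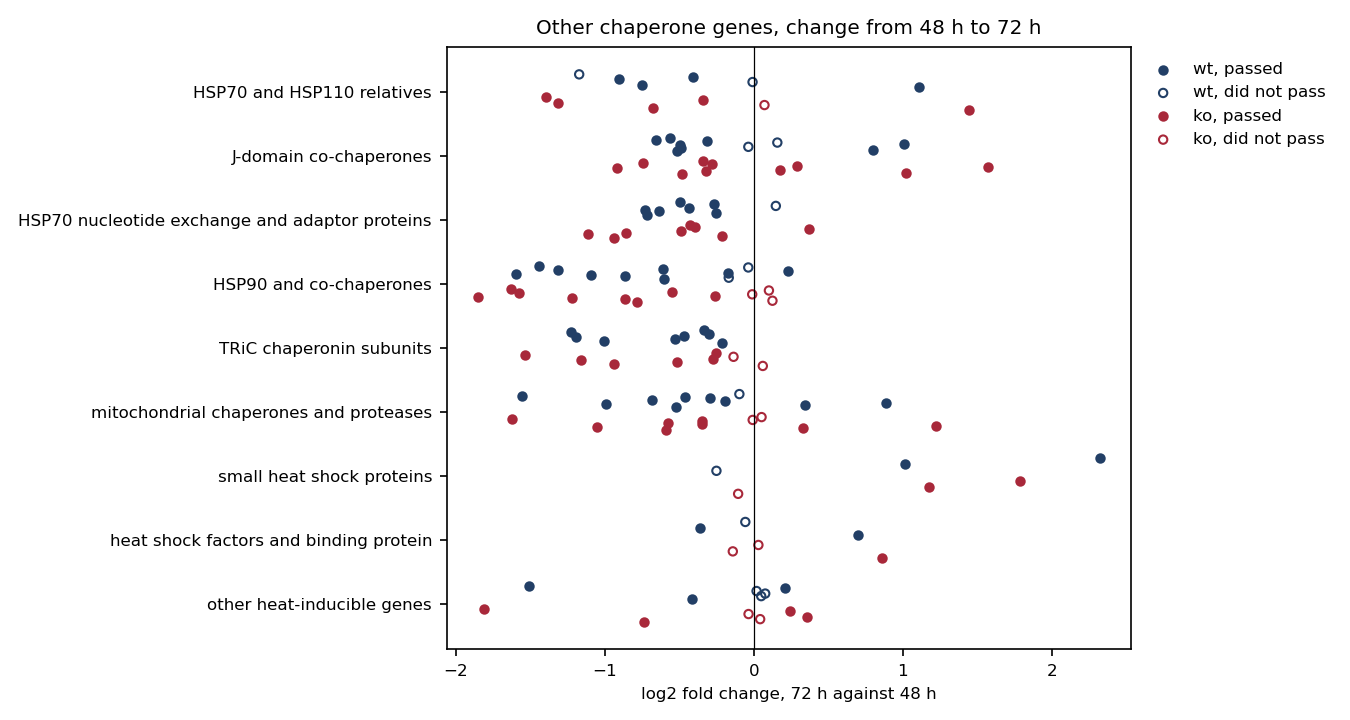
Log2 fold change from 48 h to 72 h of 65 other chaperone genes by list, in wt and ko, filled where the gene passed the test and open where it did not. Most filled points of the TRiC, HSP90 and nucleotide exchange lists lie left of 0, and those right of 0 include Hspa4l, Dnajb4, Hscb and Hspb11.

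Between genotypes at 48 h, 2 of the 65 genes were higher in ko and 4 lower (adjusted p under 0.05), against 4.41% higher and 2.66% lower of all genes (7.07% either way). Hmox1 (heme oxygenase) was higher by 0.40 and Dedd2 by 0.20, and Hspa4 was lower by 0.23, Tcp1 by 0.21, St13 by 0.18 and Stip1 by 0.17 (log2). None of the 6 calls held throughout: without wt 48 h replicate 1, wt 48 h replicate 2 or ko 48 h replicate 2 none passed, without wt 48 h replicate 4 or ko 48 h replicate 1 0 were higher and 1 was lower, and without ko 48 h replicate 3 7 were lower. With library-size scaling 0 were higher and 9 lower. Bag3, Hsp90ab1, Cct2, Hspa9 and Hsf2 did not pass at 48 h, with log2 differences of -0.31, -0.10, -0.14, -0.12 and -0.22.

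At 72 h 11 of the 65 were higher in ko and 17 lower, against 16.9% higher and 19.5% lower of all genes (36.4% either way), and with library-size scaling 6 were higher and 31 lower. The median was -0.08 against -0.02 for all genes. Nucleotide exchange factors and adaptors were lower in ko in 5 of 8 genes and higher in none, with Hspbp1 at 43.7 ± 1.80 CPM in ko and 66.9 ± 8.97 in wt (SD, n = 4 each; log2 difference -0.49 ± 0.07, SE; adjusted p = 2.09e-05, edgeR) and Bag2 lower by 0.35. HSP90 and its co-chaperones were lower in 5 of 11 and higher in 2, with Ppid lower by 0.47 and Ahsa1 by 0.36, and Sugt1 higher by 0.52 (log2). Stip1 was lower by 0.18 and Hspa9 by 0.17.

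Cct3 was the single TRiC subunit that passed at 72 h, lower in ko by 0.47 (adjusted p = 2.84e-06, edgeR), and Cct2 had -0.06 (log2). Hspa14 was lower by 0.43, and Dnajb4 was higher by 0.42, Dnajb6 by 0.25, Clpx, a mitochondrial unfoldase, by 0.41, Hscb by 0.44, Hsf4 by 0.71, Ubb by 0.34 and Dedd2 by 0.23 (log2). For Hsf4 the ko and wt libraries overlapped in CPM. The calls of Dnajb6 and Dedd2 were lost with library-size scaling (adjusted p = 0.0573 and 0.168, edgeR). Stub1 was lower by 0.27, a call lost without wt 72 h replicate 3 (adjusted p = 0.0824, edgeR). Of the 26 calls of named genes, 18 held with each library left out. Hsp90ab1 had -0.19 ± 0.07 (SE; adjusted p = 0.0447, edgeR), and its call was lost in 12 of the 16 fits that left out 1 library, up to an adjusted p of 0.148. Bag3 had -0.09 and Hsf2 0.00 (log2), and neither passed.

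The change with time differed between the genotypes for 6 of the 65 other chaperone genes by the interaction test, with a positive difference (ko minus wt, log2) in 2 and a negative one in 4. Of all genes 5.61% passed this test, 2.08% with a positive and 3.53% with a negative difference. With library-size scaling 0 were positive and 10 negative. Hspbp1 (-0.48, adjusted p = 0.00697, edgeR) and Hspa14 (-0.41, adjusted p = 0.00746, edgeR) fell further in ko than in wt (log2), and both held with each library left out.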

How the data were processed

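The values deposited by the authors are raw read counts per gene, as whole numbers with no normalization, from 16 stranded poly-A libraries made with 100 ng of RNA each. The submitters' processing notes name bcl2fastq 2.2.0, STAR 2.7, featureCounts and GRCm38. Annotation release, strand setting and the handling of reads that match several genes were not given in the sources used here, which leaves near-identical copies and overlapping genes uncertain. Of 55335 identifiers 55154 were found in GENCODE M21, which gave positions and exon lengths. CPM was computed from column sums. Every pair of libraries in a group differed by more than sampling noise.

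A single fit in edgeR 4.0.16 (R 4.3.3) held the 4 groups and all 16 libraries, with TMM scaling and a low-count filter (filterByExpr, minimum count 10). The robust quasi-likelihood test was two-sided, with Benjamini-Hochberg adjustment over 15197 genes and a threshold of 0.05. Dividing a log2 fold change by the square root of F gave its standard error. The fit was tested on simulated data. Members, lists and tests were chosen with earlier results of these data known. Genes were named by a rule: the members, up to 3 genes of each list and comparison past the threshold with the largest changes and an average log2 CPM of 3 or more, any gene alone in passing in its list, and Hsp90ab1, Hspa9, Bag3, Hsf2, Stip1, Cct2 and Batf3. Likeness was Pearson's r of log2 CPM, for Hspa8, Hsph1 and Hspd1; 1 gene near Hspa8 is not reported here.

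Alternatives were median-ratio (RLE) and library-size scaling, no filter, DESeq2 1.42.0, fitting just the groups in a comparison, a replicate block, leaving out each library or both libraries that stand apart, offsets for each library's length trend, and summing Hspa1a and Hspa1b.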

Additional observations from a re-analysis of the deposited data

Results flagged for a closer look

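In 3 of 40 sets of values checked (10 genes in 4 groups of 4 libraries), 1 library stood far from the other 3; chance alone marks about 1 in 20 groups. Hspa1b in ko 72 h replicate 3 had 287 CPM, against 225 to 235 in the others, and Hspa1a was also highest there, at 229 CPM. Hspe1 in wt 48 h replicate 4 had 469 CPM against 443 to 447. Hsf1 in ko 48 h replicate 4, a library that stands apart from its group, had 46.2 CPM against 38.8 to 39.5.

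For 6 of the 65 other chaperone genes the change from 48 h to 72 h differed between the genotypes by the interaction test in edgeR. Hspa14 had an interaction of -0.41 (log2; adjusted p = 0.00746, edgeR) and Hspbp1 of -0.48 (adjusted p = 0.00697, edgeR): both fell further in ko, and both calls held with each library left out. Cct3 had -0.31 (adjusted p = 0.0344, edgeR), Fkbp4 -0.26 (adjusted p = 0.0407, edgeR), Dnajb4 0.56 (adjusted p = 0.0316, edgeR) and Clpx 0.46 (adjusted p = 0.029, edgeR). These 4 calls were lost when 1 library was left out. The call of Cct3 was lost in 11 of 16 such fits (highest adjusted p = 0.149, without ko 72 h replicate 3), that of Fkbp4 in 10 (0.155, without the same library), that of Clpx in 6 (0.0774, without wt 48 h replicate 4) and that of Dnajb4 in 5 (0.0874, without wt 48 h replicate 1). With library-size scaling 0 of the 65 genes had a positive and 10 a negative interaction.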

How the results depend on the processing

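Under every alternative 5 members fell with time in each genotype. The rises of Hspa1a and Hspa1b in both genotypes held in every fit that kept the copies apart, and summed as 1 feature they also rose. In ko the rises of Hspa8 and Dnajb1 held under every alternative. In wt Dnajb1 passed with the length trends removed. Hspb1 is left out of these statements, since its change has no test. No called value changed sign. The 72 h genotype values of 4 members moved by more than the spread between libraries: with library-size scaling Hspa8 went from 0.20 to 0.069, Dnajb1 from 0.66 to 0.54, Hspd1 from -0.44 to -0.57 and Hspe1 from 0.20 to 0.078 (log2), and with the length trends removed Hspa8 had 0.25 and Hspe1 0.078. The cause was not tested.

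Counts of the other chaperone genes with time stayed within 1.5 times throughout. Those between genotypes did not. At 48 h, 2 were higher and 4 lower in the fit reported: 1 was higher with RLE scaling, 0 higher and 9 lower with library-size scaling, 10 lower with DESeq2, 2 lower with only the groups compared, and 4 higher without both libraries that stand apart; leaving out 1 library gave 0 to 3 higher and 0 to 7 lower. At 72 h (11 and 17), library-size scaling gave 6 higher and 31 lower, and only the groups compared gave 11 lower. For the interaction (2 and 4), RLE scaling gave 2 lower, library-size scaling 0 higher and 10 lower, and DESeq2 and the removal of length trends 5 higher each; leaving out 1 library gave 0 to 3 higher and 2 to 5 lower. Most genotype differences in these genes were small, and depth limits Hspb1 most, with 0 to 7 counts a library at 48 h.

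Replicate numbers were not used as pairs in the fit reported. Of 24 same-numbered pairs across groups 9 had a correlation of deviations over 0.1 (median 0.0306, range -0.599 to 0.294). Of 72 different-numbered pairs 21 did (median -0.0343, range -0.511 to 0.550). These values do not settle whether libraries of the same number belong together. With the replicate number as a block, 1 chaperone gene was higher and 2 lower in ko at 48 h, and 2 had a negative interaction. The calls of the members with time, leaving out Hspb1, did not change.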

Other observations

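The ratio of Hspd1 to Hspe1 counts, the chamber and the lid of the same chaperonin, differed between the groups. It was 2.90 ± 0.228 in wt at 48 h, 2.28 ± 0.323 in ko at 48 h, 1.65 ± 0.185 in wt at 72 h and 1.05 ± 0.0874 in ko at 72 h (SD, n = 4 each). In that order the libraries of no 2 neighbouring groups overlapped: the lowest wt 48 h library had 2.67 and the highest ko 48 h library 2.62, and the lowest ko 48 h library had 2.00 and the highest wt 72 h library 1.84. This ratio was looked at after the values were seen and has no test, and reads at the overlapping 5′ ends could be assigned to either gene. Hspd1 has 2642 bases of exon and Hspe1 1474, and the length trends given above differed between the groups. The part of these trends in the ratio was not tested.

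Within wt at 72 h, where Hspa1a and Hspa1b were high in replicates 1 and 2 and low in replicates 3 and 4, Hspa4l had 70.3, 74.6, 54.2 and 59.1 CPM and Dnajb4 had 23.1, 24.9, 19.98 and 20.2 CPM in replicates 1 to 4. Bag3 had 6.92, 5.24, 6.47 and 5.44 CPM there and Hspd1 425, 421, 452 and 437 CPM, in another order. These genes were chosen after their values were seen, and the series text calls the libraries technical replicates of 1 condition.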
